A study of Macaca radiata with 4 samples.

Results

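The genes described here form the core circadian clock, and were looked for as NR1D1, NR1D2, PER1, PER2, PER3, CRY1, CRY2, ARNTL, CLOCK and DBP. Members were the probe sets whose single gene symbol in the array's annotation is one of these 10 names. The annotation gave 11 probe sets of 7 of the 10 genes, out of 14132 genes with a probe set of their own. NR1D2, CRY1 and DBP were not matched to a probe set and were not analysed here. The genes were chosen by name with their log2 signals on each array, rhLH against each PBS array, in view. Their differences between the groups are therefore a description, with no test.

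Corpora lutea came from female Macaca radiata, the bonnet monkey, and were measured on Affymetrix rhesus macaque expression arrays. On luteal day 7 every animal was given CET (150 µg/kg), which per the labels inhibits endogenous LH secretion. At 24 h the control group was injected intravenously with 0.5 ml of PBS (replicates 1 and 2, called PBS 1 and PBS 2) and the other group with 20 IU/kg of rhLH, an LH preparation (rhLH 3 and rhLH 4). The tissue was taken 8 h after that injection, from 2 animals per group by the design text. Both groups share the withdrawal of endogenous LH, and the labels used here give no hour of the day for the collection.

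The circadian clock is a feedback loop of transcription that runs in most cell types, ovarian cells among them. CLOCK and ARNTL (also called BMAL1) form a dimer that activates the PER and CRY genes, NR1D1, NR1D2 and DBP, and the PER and CRY proteins then inhibit that dimer. NR1D1 (REV-ERB alpha) is a nuclear receptor that represses ARNTL, while the ROR receptors activate it. The comparison addresses which of these transcripts differ in luteal tissue between LH replacement and continued LH withdrawal.

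PBS 1 stood apart from the other 3 arrays. Across the 31659 probe sets kept by the filter on low signals, its Pearson correlations with them were 0.752 to 0.780, whereas the other 3 correlated with each other at 0.940 to 0.947. Each clock gene is therefore given against each PBS array as well as against their mean. The tissue label was checked on 5 of 9 steroidogenic cell markers that were kept, which summed to a signal of 59599 on PBS 1 and to between 136150 and 147010 on the other arrays. STAR, the cholesterol carrier of steroidogenesis, had signals of 24283 to 54566. Summed markers of endothelial cells (6 of 6 genes; PBS 15804 and 19940, rhLH 17064 and 18867), pericytes and smooth muscle cells (2 of 5; PBS 1951 and 4951, rhLH 2980 and 1822), fibroblasts (5 of 6; PBS 32598 and 63334, rhLH 54775 and 60830), leukocytes (3 of 6; PBS 1847 and 2944, rhLH 4678 and 2541) and red blood cells (2 of 3; PBS 1123 and 899, rhLH 996 and 1235) were also measured. None of the 6 summed levels separated the rhLH arrays from the PBS arrays, but single markers did. Of the 5 steroidogenic markers, 2 lay above both PBS arrays on both rhLH arrays, against 16.3% of all genes. They were CYP19A1 (PBS 1884.5 and 7431, rhLH 12670 and 20847) and HSD3B2 (PBS 25500 and 29153, rhLH 33922 and 38138), while STAR, INHA and NR5A1 overlapped. By the brightest probe set, KDR and ALAS2 also lay above both PBS arrays, and PECAM1 and COL3A1 below both. KDR read 34.8 on PBS 1 and 234 on PBS 2, beside 241 and 305 with rhLH. The PECAM1 probe sets disagreed, at a log2 difference of −0.31 on the brightest. Of its further ones, MmugDNA.20462.1.S1_at lay above both PBS arrays (0.40) and MmuSTS.1106.1.S1_at overlapped (−0.02). The part of the cell types in the values below was not tested.

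NR1D1 was lower on both rhLH arrays and ARNTL, the gene it represses, was higher on both, by 2.75-fold and 1.94-fold on the brightest probe set of each. PER3 was also lower on both rhLH arrays, whereas PER1, PER2, CRY2 and CLOCK lay on different sides of the individual PBS arrays. Of the 8 kept probe sets of clock genes, 2 lay below both PBS arrays on both rhLH arrays, against a background of 17.7% of all kept probe sets. Another 2, both of ARNTL, lay above both, against 14.4%, and the other 4 overlapped. With every gene counted once, 1 of the 7 clock genes lay above both and 2 below both. The shares of all genes were 16.3% and 16.1%. Fold differences are differences of mean log2(signal + 16), put back on the linear scale. Because whole tissue was measured, fewer cells of a type and less RNA per cell cannot be told apart.

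**Figure D1:**
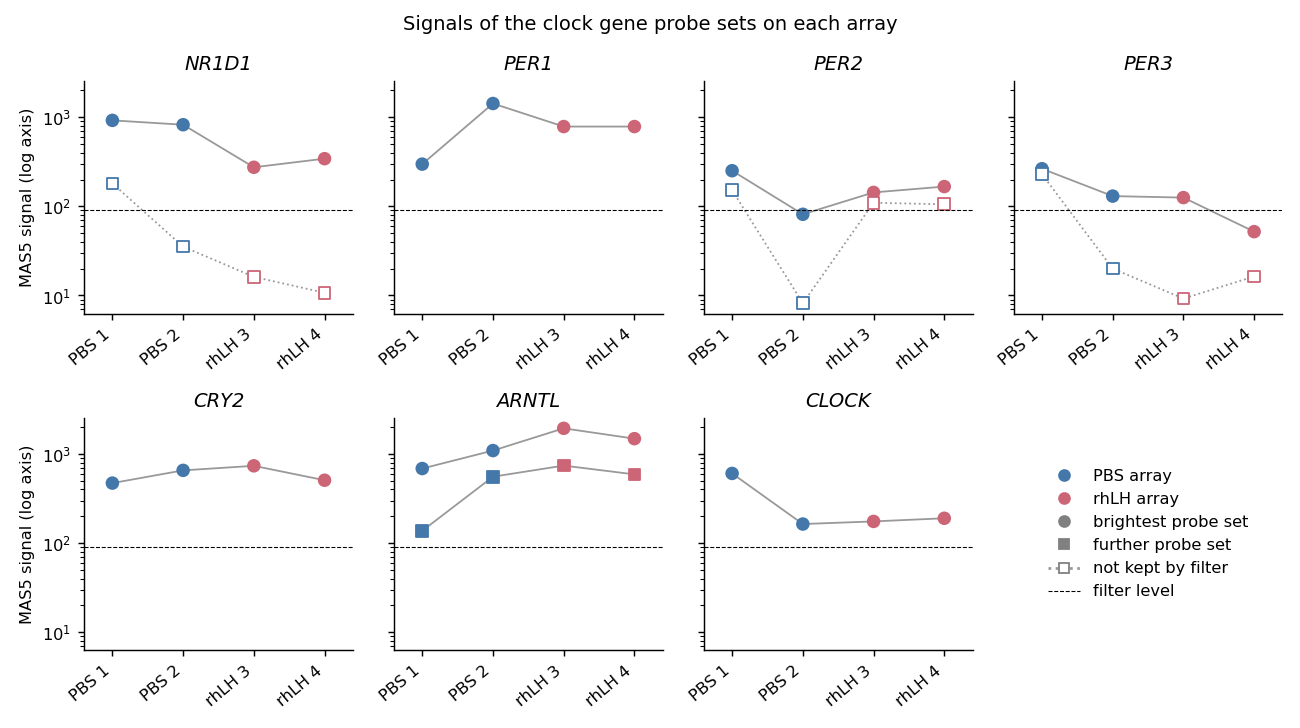
MAS5 signal (log axis) of each clock gene probe set on the 4 arrays, with PBS arrays in blue and rhLH arrays in red; circles are the brightest probe set of a gene, squares a further one, open squares those not kept, and the dashed line is the filter level of 90.7. Lines link the values of a probe set and imply no order; NR1D1 runs from 922 and 824 with PBS to 274 and 343 with rhLH, and ARNTL from 685 and 1090.1 to 1937 and 1483.

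For NR1D1, a repressor of ARNTL, the brightest probe set (MmuSTS.3017.1.S1_at) read 922 on PBS 1, 824 on PBS 2, 274 on rhLH 3 and 343 on rhLH 4. Both rhLH arrays were low and both PBS arrays high, with no overlap. The means were 873 ± 69.3 (SD, n = 2) with PBS and 309 ± 48.2 (SD, n = 2) with rhLH, a log2 difference of −1.46. It was −1.54 relative to PBS 1 and −1.38 relative to PBS 2, so either control gave nearly the same value. The PBS arrays differed from each other by 0.16 on the log2 scale and the rhLH arrays by 0.30. This was the single kept clock gene probe set on which every rhLH array lay at least 2-fold below every PBS array, as did 0.49% of all kept probe sets.

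The further NR1D1 probe set (MmugDNA.17902.1.S1_at) was not kept by the filter, and its signal was below the filter level of 90.7 on 3 arrays. It read 181 and 35.3 with PBS and 16.2 and 10.7 with rhLH. The rhLH arrays again lay below both PBS arrays, but its log2 differences of −2.75 and −0.81 depended on the control, and its 3 lower signals stood at the 7.36, 11.4 and 21.5 percentiles of their arrays.

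ARNTL encodes the partner of CLOCK and was measured by 2 kept probe sets. The brighter one (MmuSTS.3158.1.S1_at) had signals of 685 and 1090.1 with PBS and 1937 and 1483 with rhLH. The groups did not overlap, and the means were 888 ± 286 (SD, n = 2) and 1709.8 ± 321 (SD, n = 2). The log2 difference of 0.96 was 1.29 relative to PBS 1 and 0.63 relative to PBS 2, the value that remains without PBS 1.

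On the further ARNTL probe set (MmugDNA.9250.1.S1_at), the signals were 137 and 555 with PBS and 739 and 589 with rhLH. Both rhLH arrays again lay above both PBS arrays, but the lower rhLH signal of 589 was close to the 555 of PBS 2. Its log2 difference was 1.19, namely 2.14 relative to PBS 1 and 0.24 relative to PBS 2. Both ARNTL probe sets thus pointed the same way against either control, by an amount that the choice of control changed.

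CLOCK, the other subunit of the activating dimer, was read by 1 probe set (MmugDNA.24651.1.S1_at), which read 604 on PBS 1, 163 on PBS 2, 175 on rhLH 3 and 189.7 on rhLH 4. PBS 1 was high and the other 3 arrays lay close together. The means were 384 ± 311 (SD, n = 2) with PBS and 182 ± 10.5 (SD, n = 2) with rhLH. The pooled log2 difference of −0.75 consisted of −1.65 relative to PBS 1 and 0.14 relative to PBS 2, so its direction turned without PBS 1.

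Among the PER genes, whose proteins inhibit the CLOCK and ARNTL dimer, PER3 (MmugDNA.14106.1.S1_at) had signals of 264 and 130.3 with PBS and 125 and 52.0 with rhLH. Both rhLH arrays lay below both PBS arrays, though rhLH 3 and PBS 2 were nearly equal. The means were 197 ± 94.7 (SD, n = 2) and 88.7 ± 51.9 (SD, n = 2), a log2 difference of −1.05, which was −1.51 relative to PBS 1 and −0.58 relative to PBS 2. The rhLH arrays differed from each other by 1.06 on the log2 scale, as much as the groups did, and leaving out rhLH 4 gave −0.52 and leaving out rhLH 3 gave −1.57. The further PER3 probe set (MmugDNA.14937.1.S1_at) was not kept, with signals of 229.9 and 20.0 with PBS and 9.24 and 16.3 with rhLH. Its rhLH signals were also below both PBS signals, 3 of the 4 values being under the filter level.

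PER1 (MmugDNA.1526.1.S1_at) had signals of 298 and 1425 with PBS, while both rhLH arrays read 785. The rhLH arrays thus lay between the PBS arrays, which differed from each other by 2.20 on the log2 scale. The log2 difference was 1.35 relative to PBS 1 and −0.85 relative to PBS 2, and 0.25 against their mean. No direction can be given for PER1 from these arrays.

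PER2 was read by 2 probe sets whose names differ only in the suffix, so they may share their target, which was not examined. The kept one (MmugDNA.41285.1.S1_s_at) had signals of 251 and 81.5 with PBS and 143 and 167 with rhLH, the latter lying between the PBS arrays. The log2 difference was 0.08, from −0.65 relative to PBS 1 and 0.81 relative to PBS 2. The one not kept (MmugDNA.41285.1.S1_at) read 152 and 8.19 with PBS and 109.8 and 105 with rhLH. Its log2 difference was 0.95, from −0.44 relative to PBS 1 and 2.35 relative to PBS 2. On both probe sets PBS 1 was the highest array and PBS 2 the lowest.

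CRY2 encodes a binding partner of the PER proteins that inhibits the same dimer. Its probe set (MmugDNA.41734.1.S1_at) had signals of 470.4 and 654 with PBS and 735 and 507 with rhLH, which overlapped. The means were 562 ± 129.7 (SD, n = 2) and 621 ± 162 (SD, n = 2), and the log2 difference of 0.13 (0.37 relative to PBS 1 and −0.10 relative to PBS 2) was smaller than the 0.46 between the PBS arrays and the 0.52 between the rhLH arrays.

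**Figure D2:**
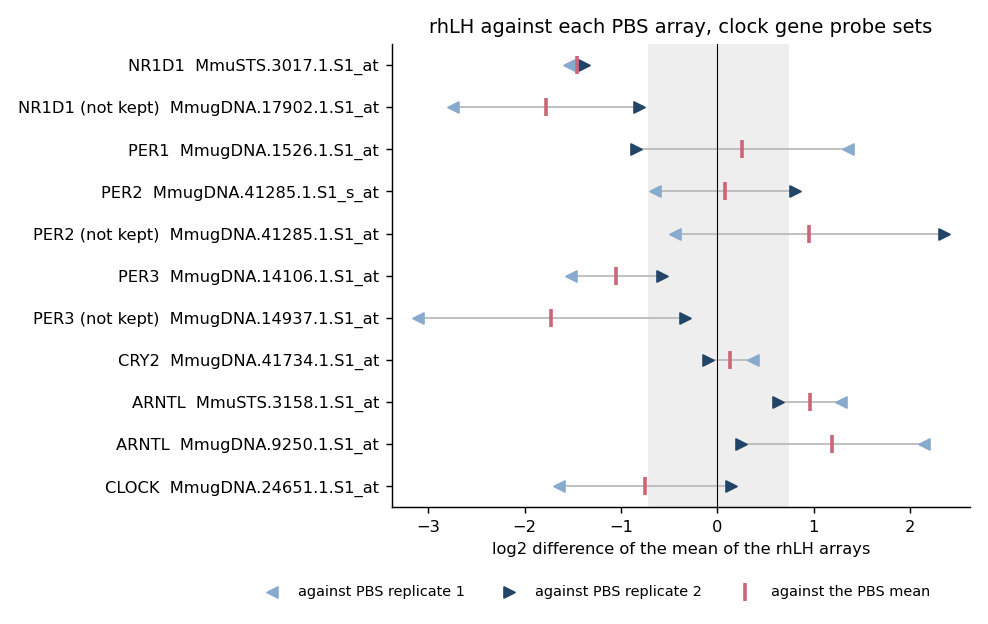
Log2 difference of the mean of the rhLH arrays relative to PBS 1 (light triangles), PBS 2 (dark triangles) and the PBS mean (red bars) for all 11 clock gene probe sets; the grey band holds the middle 80% of 10998 genes against the PBS mean (−0.71 to 0.73). Both triangles lie on the lower side for NR1D1 and PER3 and on the higher side for ARNTL, and they lie on opposite sides for PER1, PER2, CRY2 and CLOCK.

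Over the 7 genes, each by its brightest kept probe set, the median log2 difference was 0.08, beside 0.02 over all 10998 kept genes. It was −0.65 relative to PBS 1 (all genes −0.01) and −0.10 relative to PBS 2 (all genes −0.0024). The clock genes thus had no common direction. Against PBS 2, which resembled the rhLH arrays, NR1D1 (−1.38) and PER3 (−0.58) lay below the 10th percentile of all genes (−0.51). PER1 (−0.85) lay below it too, ARNTL (0.63) and PER2 (0.81) lay above the 90th percentile (0.50), and CLOCK and CRY2 lay in between. Against PBS 1 the same percentiles were −1.23 and 1.34, and NR1D1, PER3 and CLOCK lay below the lower one, PER1 (1.35) just above the upper one and ARNTL (1.29) just under it.

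PBS 1 gave an extreme value for every kept clock gene probe set, being the highest of the 4 arrays for 4 of 8 and the lowest for the other 4. Over all kept probe sets it was the highest for 44.0% and the lowest for 35.7%. The 3 probe sets not kept were all highest on PBS 1, as were 43.7% of all probe sets not kept. The median log2 gap between the PBS arrays was 1.20 over the 8 clock gene probe sets and 0.74 over all kept ones, and that between the rhLH arrays 0.31 and 0.29. The PBS gap exceeded the rhLH gap for 5 of 8 clock gene probe sets and for 74.6% of all kept probe sets. NR1D1, PER3 and CRY2 were the clock genes for which it did not.

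Ranks within each array do not depend on its scaling or spread. NR1D1 stood at the 83.2 and 82.1 percentiles of all probe sets on the PBS arrays and at 65.0 and 68.7 on the rhLH arrays. ARNTL stood at 78.5 and 85.7 with PBS and at 91.7 and 89.3 with rhLH on the brighter probe set, and at 42.8 and 76.3 against 80.7 and 77.3 on the further one. PER3 stood at 58.3 and 48.3 with PBS and at 48.1 and 27.9 with rhLH. The rank of each of these 4 probe sets separated the groups in the same direction as its signal, by the least for PER3. CLOCK had percentiles of 76.3 and 53.9 with PBS and 55.9 and 57.6 with rhLH, and PER1 61.2 and 88.8 against 81.5 on both rhLH arrays.

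**Figure D3:**
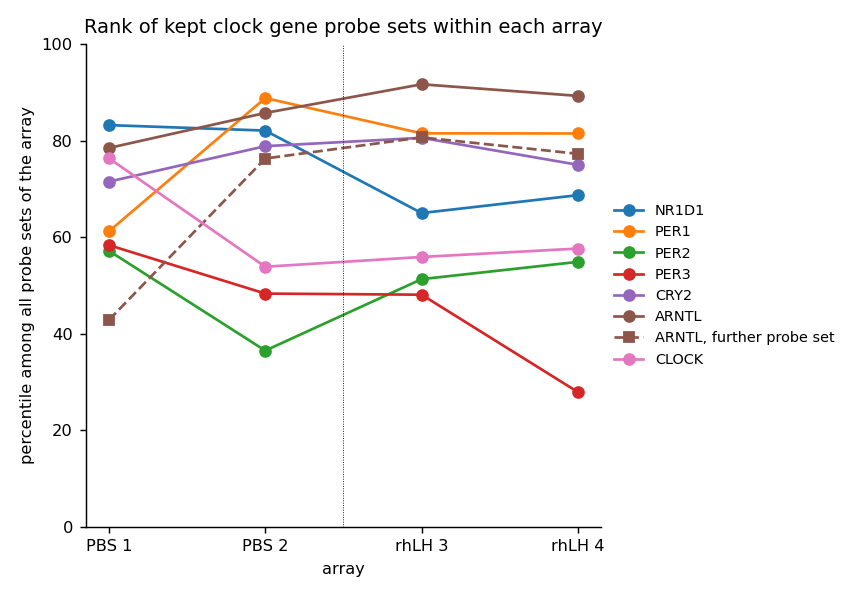
Percentile of each of the 8 kept clock gene probe sets among all probe sets of the same array (vertical axis, 0 to 100) on the 4 arrays; lines link the values of a probe set and imply no order among arrays. NR1D1 is at 83.2 and 82.1 with PBS and at 65.0 and 68.7 with rhLH, and the brighter ARNTL probe set at 78.5 and 85.7 and then 91.7 and 89.3.

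The genes with a profile over the 4 arrays most like that of NR1D1 were taken by the root mean square distance of log2 values, each centred on its own mean. They were LOC695018, WIPF3, an actin regulator, HIF3A, a subunit of the hypoxia-inducible factors, SMPDL3A, a phosphodiesterase, and RASL11B, a small GTPase, at distances of 0.0784 to 0.110. SMPDL3A had signals of 2013 and 1638 with PBS and 608 and 856 with rhLH, and RASL11B 656 and 507 with PBS and 173 and 255 with rhLH. These were low on both rhLH arrays, as the choice by likeness to NR1D1 requires. A further probe set of SMPDL3A lay below both PBS arrays too (log2 −0.90). The kept further probe set of WIPF3 (−0.09) overlapped between the groups. The kept further ones of HIF3A disagreed, as 1 lay below both PBS arrays (−1.65, from −2.83 relative to PBS 1 and −0.47 relative to PBS 2) and the other 2 overlapped (−0.34 and 0.15). Among the clock genes, PER3 was nearest to NR1D1, at a distance of 0.59, and both ARNTL probe sets were farthest, at 1.53 and 1.27.

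The rest of the clock pathway was read from 60 listed genes in 7 role groups, of which 49 had a probe set and 42 were kept. In the limma test none of the 42 passed at an adjusted p of 0.05, nor did any of the 31659 kept probe sets (0%), for which the smallest adjusted p was 0.919. At an unadjusted p under 0.05 there were 2 of the 42 genes (4.76%), PPP1CA and KLF10, and 209 of all 10998 genes (1.90%), or 641 of all probe sets. Without PBS 1 limma called 0 of the 42 genes and 0 of all probe sets. Without PBS 2 it called 14 and 8169, but there the array that stands apart is the sole control and the spread comes from the rhLH pair alone. Both rhLH arrays lay above both PBS arrays for 6 of the 42 genes and below for 7, against 16.3% and 16.1% of all genes by the same rule, shares near the background. The median log2 difference of the list was −0.01, beside 0.02 over all genes.

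Of the receptors and repressors that act on the loop, RORA, an activator of ARNTL, had signals of 167 and 273 with PBS and 282 and 295 with rhLH. These were higher on both rhLH arrays, by 0.74 relative to PBS 1 and 0.07 relative to PBS 2. The further kept RORA probe set overlapped between the groups, at 87.0 and 120.6 with PBS and 145.8 and 116.3 with rhLH. BHLHE40, a repressor of CLOCK and ARNTL activity, had a log2 difference of −0.50 (SE 0.37), with −0.28 and −0.72 against the 2 controls and overlapping arrays. The further BHLHE40 probe set changed sides with the control, at 0.05 relative to PBS 1 and −0.99 relative to PBS 2. CIART, an inhibitor of the same dimer, differed by −0.19 (SE 0.41), its rhLH signals of 301 and 326 lying just under the 367 and 353 of the PBS arrays. On the brightest probe sets the limma adjusted p was 0.919 for RORA and BHLHE40 and 0.937 for CIART.

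Among kinases and phosphatases that set the stability of the PER proteins, the catalytic phosphatase subunit PPP1CA had signals of 1278 and 1873 with PBS and 3098 and 2842 with rhLH. Its log2 difference was 0.93 (SE 0.34; limma adjusted p = 0.919), with 1.20 relative to PBS 1 and 0.66 relative to PBS 2. Both of its further probe sets (0.92 and 0.83) lay on the same side. CSNK1E, which phosphorylates PER proteins, differed by 2.59 relative to PBS 1 and −0.12 relative to PBS 2, and CSNK2B, a casein kinase subunit, by 1.54 and −0.14. The direction thus turned with the control on these brightest probe sets, and also on the further one of CSNK2B (1.20 and −0.19). The further CSNK1E probe set did not turn: it read 39.8 and 117 with PBS and 353 and 269 with rhLH, above both PBS arrays (2.54 relative to PBS 1 and 1.28 relative to PBS 2; limma adjusted p = 0.919).

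Of the ubiquitin ligases and proteases, HUWE1, a ubiquitin ligase that acts on the NR1D1 protein, had signals of 5192 and 4373 with PBS and 1807 and 3330 with rhLH. Its log2 difference was −0.95 (SE 0.40; limma adjusted p = 0.919), with −1.08 and −0.83 against the controls, and its 3 further probe sets stood at −0.80, −0.65 and −0.41. FBXW11, which targets PER proteins, differed by −1.05 relative to PBS 1 and by −0.14 relative to PBS 2. USP2, a protease that removes ubiquitin, differed by −1.88 and 0.23, on opposite sides of the controls. Among the brightest probe sets of this group, that of HUWE1 had the smallest p. UBE3A, also of this group, lay above both PBS arrays on a further probe set (log2 1.64), but its other kept ones overlapped.

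KLF10, a transcription factor under clock control, was lower on both rhLH arrays, with signals of 5457 and 4794 with PBS and 2525 and 3393 with rhLH. Its log2 difference of −0.80 (SE 0.33; limma adjusted p = 0.919) was −0.89 and −0.71 against the controls, and it had no further probe set. TEF, a PAR bZIP factor related to DBP, had signals of 1012 and 733 with PBS and 613 and 694 with rhLH, with differences of −0.62 and −0.16. WEE1, a cell cycle kinase driven by CLOCK and ARNTL, differed by −1.15 and −0.14 on its brightest probe set, with overlapping arrays. The further WEE1 probe set lay below both PBS arrays without overlap, by −0.81 relative to PBS 1 and −0.29 relative to PBS 2. The TEF signals with rhLH lay below both PBS signals by less than the spread between the PBS arrays.

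Among cofactors, TIPIN, the partner of TIMELESS, was at 281 and 441 with PBS and at 604 and 543 with rhLH (log2 0.68, SE 0.42). The acetyltransferase EP300 differed by −1.71 relative to PBS 1 and −0.04 relative to PBS 2, and the deacetylase SIRT1 by −1.42 and 0.08. On these probe sets PBS 1 alone was high, at 4479 and 2217, against 1280 to 1434 and 772 to 832 on the other arrays. The 4 further kept probe sets of EP300 disagreed, at −0.88, −0.24, −0.0027 and 0.20 against the PBS mean, and on the last of these PBS 1 was the lowest array. The mean of all kept EP300 probe sets was −0.36, beside −0.88 for the brightest. Of the transcription factors of cAMP signalling, an input to the clock, CREM had signals of 2000.1 and 2650.2 with PBS and 4088 and 2925 with rhLH on its brightest probe set. The CREM difference was 0.58 (SE 0.35), with 0.79 and 0.38 against the controls, and its 4 further kept probe sets stood at 1.31, 0.67, 0.57 and −0.22. CREB1 (1.19 and −0.08) changed sides with the control, as did ATF1 on its brightest probe set (−1.59 and 0.09), whose 5 further kept ones ran from −0.79 to 0.21 against the PBS mean, and the limma adjusted p was 0.919 for the brightest probe set of each of these cofactors and factors.

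**Figure D4:**
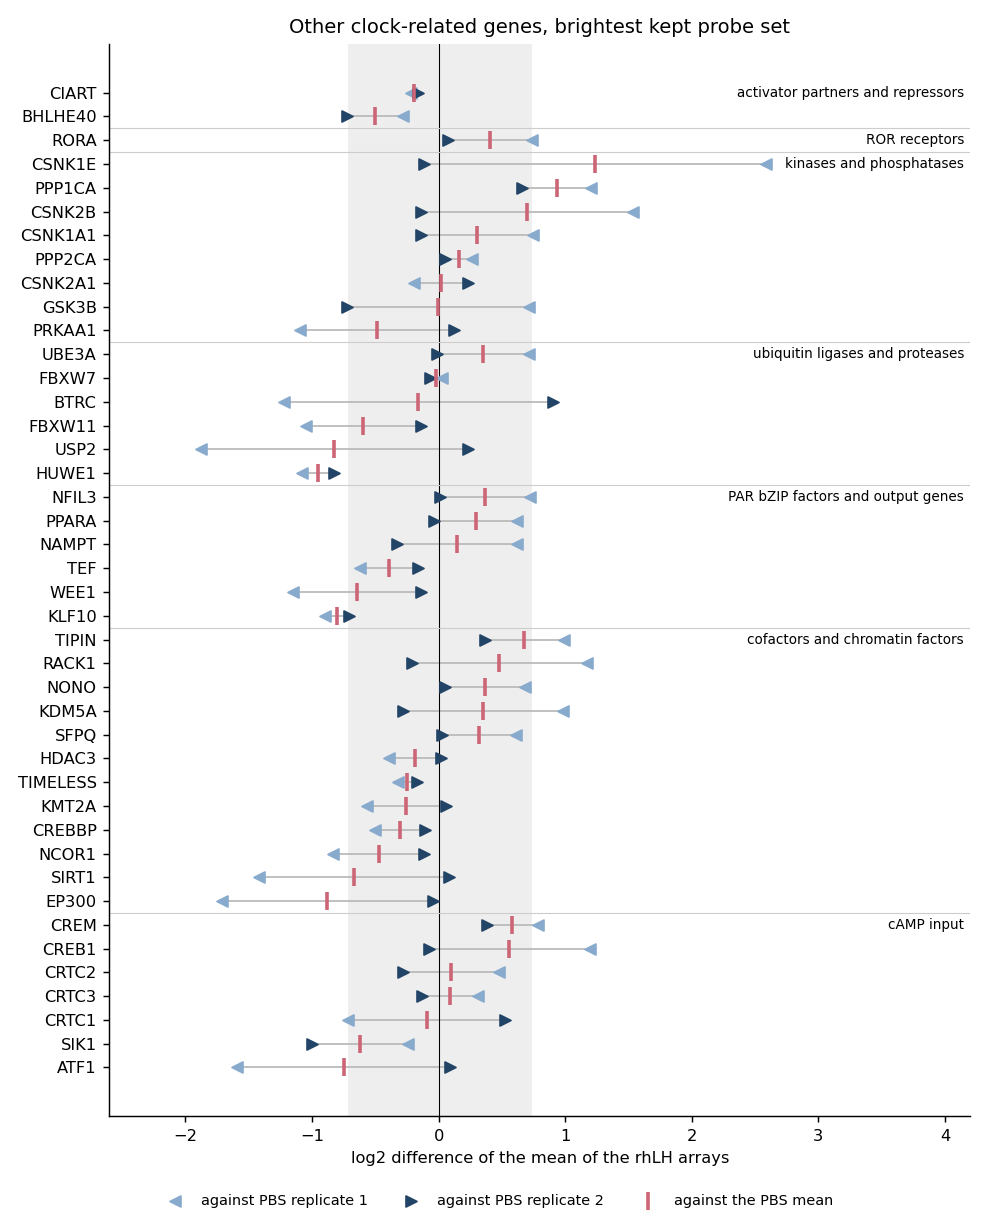
Log2 difference of the mean of the rhLH arrays relative to PBS 1 (light triangles), PBS 2 (dark triangles) and the PBS mean (red bars) for the 42 kept clock-related genes in 7 role groups. The grey band holds the middle 80% of 10998 genes against the PBS mean (−0.71 to 0.73). PPP1CA, TIPIN and CREM are among several genes with both triangles on the higher side, and HUWE1 and KLF10 among several with both on the lower side. None of the 42 passed the limma test.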

How the data were processed

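The authors deposited probe set intensities, which per the labels and the submitters' processing notes are linear MAS5 signals. How they were scaled or filtered, and any detection calls, are not stated in the sources used here. The 2% trimmed mean was 500.0 on all 4 arrays. Signals of 52766 probe sets (99 control probe sets left out) were taken as log2(signal + 16). Those with a mean log2 above the 40th percentile (signal 90.7) were kept, 31659 in all, and tested with limma 3.58.1 in R 4.3.3 (trend, two-sided, Benjamini-Hochberg adjustment). Of the probe sets, 24956 had 1 symbol, 361 several and 27449 none; the brightest kept probe set stood for its gene.

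Groups came from the titles, which tie no array to an animal, so p-values measure the spread between arrays; the number of arrays limits the precision. The rule named all clock gene probe sets, the 3 other clock-related genes with the smallest p in each role group (all past the threshold, had there been any), and the 5 genes most like NR1D1. Members and lists were chosen with earlier results of these data known. The limma step was tested on simulated data. With 2 arrays a group, an exact permutation test cannot give a two-sided p below 0.333, and none was run. Probes were designed for the rhesus macaque.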

Additional observations from a re-analysis of the deposited data

How the results depend on the processing

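Results were recomputed under 13 alternatives. No paired analysis was possible because the groups share no replicate numbers. The count of limma calls over all probe sets stayed at 0 under the other normalizations, pseudocounts, filters, variance prior and array weights, and ran from 0 to 8169 when single arrays were left out; that among the other clock-related genes ran from 0 to 14, both upper values without PBS replicate 2, where the lone PBS array is assumed to vary like the rhLH arrays. The number of clock gene probe sets lying apart ran from 4 to 8 of 8 when an array was left out (7 without PBS replicate 1 and 8 without PBS replicate 2), where fewer arrays separate more easily. The median of the clock genes ran from −0.65 to −0.018 when an array was left out, and that of the other clock-related genes from −0.087 to 0.031. Arrays centred on their medians moved the median of all genes from 0.02 to 0.25 and the share of genes with a positive difference from 51.4% to 68.0%. The other clock-related genes then had a median of 0.22 and CIART turned to 0.037, while NR1D1 stood at −1.23 and ARNTL at 1.19. With single arrays left out, CSNK1E ran from −0.12 to 2.59, CSNK2B from −0.14 to 1.54, USP2 from −1.88 to 0.23, SIRT1 from −1.42 to 0.081, ATF1 from −1.59 to 0.094 and CREB1 from −0.077 to 1.19; the end of opposite sign is in each case that without PBS replicate 1, and the cause was not tested. NR1D1 ran from −1.61 to −1.23, ARNTL from 0.63 to 1.29 and PER3 from −1.57 to −0.52 over all alternatives run for them; the filter at the 70th percentile left out PER2, PER3 and CLOCK.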
